A study of Mus musculus with 14 samples.

Results

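The transcripts of 8 S100 genes that are not granulocyte products, *S100b*, *S100a1*, *S100a4*, *S100a6*, *S100a10*, *S100a11*, *S100a13* and *S100a16*, were followed in bulk RNA-seq of mouse plexiform neurofibromas (PNs). They were taken by symbol from a table of counts on 24062 genes, and all 8 passed the filter on low counts in every comparison. Controls were dorsal root ganglia with their nerves from *Nf1fl/fl* littermates without Cre (n = 3). PNs came from *DhhCre;Nf1fl/fl* mice and were sorted by MRI into slow-growing (n = 5) and fast-growing (n = 6) tumors. The methods give a volume change under 5 mm3 for slow-growing and over 35 mm3 for fast-growing PNs, between scans at 7 and 9 months of age, and tissue taken at 9 months, whereas a legend of the same study calls the PNs 7 months old. Both genotypes carry the floxed *Nf1* alleles, and no mouse received a drug. The background is given as mixed C57BL/6, I-129 and FVBN, whereas the methods of the study describe it as largely C57BL/6. Dhh-driven Cre acts in the Schwann cell (SC) lineage, so the other cells of a PN keep *Nf1*.

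S100 proteins are small calcium sensors, each built from a pair of EF-hand loops, that usually work as dimers. On binding calcium most of them open a surface that docks onto a partner protein, and several are also released and act on receptors such as RAGE and TLR4. In peripheral nerve, S100B is the classical immunohistochemical marker of SCs and of their tumors, whereas S100A4 is known from fibroblasts and migrating leukocytes. S100A10 is the exception that has lost calcium binding and stays bound to annexin A2.

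Of the 8 genes, *S100b* is the only one on chromosome 10 (mm10, chr10:76253853-76261159, plus strand), and 7 lie on chromosome 3. *S100a1* (chr3:90511034-90514392, minus strand) and *S100a13* (chr3:90514435-90524581, plus strand) are transcribed away from each other, with 42 bases between the gene models. *S100a16* (chr3:90537254-90543151), *S100a4* (chr3:90603771-90606045) and *S100a6* (chr3:90612882-90624181) follow on the plus strand. *S100a11* (chr3:93520488-93526287) and *S100a10* (chr3:93555080-93564643) form a separate pair on the plus strand. All are protein-coding. Exons of *S100a4* overlap those of Gm42674, a gene model on the same strand without a row in the count table, so reads shared by both could have been counted for either or neither.

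RefSeq sequence upstream of a start site (GRCm38.p6, the assembly of mm10) was at hand for 7 of the 8 genes. The stretches below belong to the 4 genes that edgeR called. The first is the whole interval between the RefSeq starts of *S100a1* and *S100a13*, 104 bases written on the plus strand at chr3:90514331-90514434, shown because both genes had their lowest levels in PNs. The others are the 250 bases before a start, shown for *S100a4* (chr3:90603520-90603769, plus strand) and *S100a16*, whose levels moved together. *S100a16* has a first start (window chr3:90537004-90537253, plus strand) and a downstream one (window chr3:90540896-90541145, plus strand). Capitals mark matches to TGANTCA, the AP-1 motif, or to TATAAA, the TATA box.
S100a1 and S100a13 interval: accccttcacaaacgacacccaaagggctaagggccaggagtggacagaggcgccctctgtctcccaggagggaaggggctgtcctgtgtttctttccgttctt
S100a4: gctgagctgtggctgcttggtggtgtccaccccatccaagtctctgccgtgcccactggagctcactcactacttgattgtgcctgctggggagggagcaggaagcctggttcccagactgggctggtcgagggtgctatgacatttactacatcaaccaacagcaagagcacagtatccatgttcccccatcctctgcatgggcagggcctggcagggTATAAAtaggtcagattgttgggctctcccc
S100a16 first start: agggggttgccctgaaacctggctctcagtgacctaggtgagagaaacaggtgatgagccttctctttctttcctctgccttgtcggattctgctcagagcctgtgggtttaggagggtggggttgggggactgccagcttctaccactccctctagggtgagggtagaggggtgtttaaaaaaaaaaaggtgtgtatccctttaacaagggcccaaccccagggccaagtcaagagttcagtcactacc
S100a16 downstream start: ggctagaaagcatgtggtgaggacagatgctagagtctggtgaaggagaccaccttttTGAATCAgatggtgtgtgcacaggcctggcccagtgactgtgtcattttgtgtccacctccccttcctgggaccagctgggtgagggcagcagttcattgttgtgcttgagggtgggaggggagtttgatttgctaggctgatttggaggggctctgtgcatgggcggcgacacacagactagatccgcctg

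The 250 bases before the starts of these 7 genes, and 32851 mouse windows of the same length, were searched for 4 motifs on both strands. *S100a4* held TATAAA at 31 bases before its start, and 12.4% of all windows held it. *S100a11* held TGANTCA at positions -136 and -38, and the downstream start of *S100a16* held it at -192 while the window at its first start did not, against 6.75% of all windows. The interval shared by *S100a1* and *S100a13* held neither. The TEAD motif GGAATG, present in 12.6% of all windows, was in no window of the 7 genes, and a loose form of the NF-κB motif, present in 45.8%, was in those of 6 genes and not in that of *S100b*. These matches describe letters in a window and were not tested as binding sites. Matches of the NF-κB form can overlap each other, and no capitals mark them.

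Libraries held 9596773 to 17594164 counts on genes, with group medians of 10627393 in controls, 11707116 in slow-growing and 14459516 in fast-growing PNs. *Nf1* itself was not lower in PNs, as its levels were 131 to 229 CPM, counts scaled to the size of the library, in controls and 224 to 293 CPM in PNs, a rise of 0.54 on the log2 scale (edgeR, Benjamini-Hochberg adjusted p = 0.0215). Counts over the whole gene in whole tissue do not check a deletion limited to SCs. Control 1 stood apart from the other controls in SC marker RNA, since the summed level of 16 SC markers was 14205 CPM there against 5280 and 4798 CPM. It also stood apart in neuron markers, at 6450 CPM against 3009 and 1786 CPM. Fibroblast markers were at 5332 CPM there against 2613 and 3034 CPM, and macrophage markers at 183 CPM against 670 and 556 CPM. The controls also carried muscle and fat RNA. The sum of 13 fat markers was 6029 to 8651 CPM in controls, 65.1 to 5390 CPM in slow-growing and 26.1 to 486 CPM in fast-growing PNs, and that of 15 skeletal muscle markers was 3886 to 15873, 31.0 to 3704 and 76.2 to 2427 CPM. Fast-growing PN 4 had almost no neuronal RNA, with a sum of 36.3 CPM over 12 neuron markers against 2657 CPM or more in the other PNs. Levels below are CPM after TMM scaling over all 14 libraries. In bulk tissue, fewer cells of a type and less RNA per cell cannot be told apart.

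Against controls, PNs had less *S100a1* and less *S100a13*, and fast-growing PNs also had more *S100a4* and more *S100a16*. *S100b*, the SC marker, was on average highest in slow-growing PNs without passing the test. With edgeR, and Benjamini-Hochberg adjustment over the whole table, 2 of the 8 genes were called in PNs against controls, both lower, where 26.3% of all 16283 genes tested were called, 12.9% higher and 13.4% lower. In slow-growing PNs 1 of 8 was called, and it was lower, against 11.3% of all genes, 4.12% higher and 7.13% lower. In fast-growing PNs 4 of 8 were called, 2 higher and 2 lower, against 31.4% of all genes, 14.8% higher and 16.7% lower. Between fast-growing and slow-growing PNs none of the 8 was called by edgeR, where 1.27% of all genes were, 0.802% higher and 0.466% lower. In that comparison 4 of 8 had an unadjusted p under 0.05, against 20.4% of all genes. DESeq2 called 3 of 8, *S100a1*, *S100a4* and *S100a16*, against 10.2% of all genes, and limma voom called 0 against 0.220%. In PNs, slow-growing and fast-growing PNs, DESeq2 called 3, 3 and 5 of 8, against 31.8%, 22.5% and 36.7% of all genes, and limma voom 3, 1 and 4 of 8, against 26.4%, 11.7% and 29.9%. An unadjusted p under 0.05 was seen for 4, 4 and 5 of 8, against 38.9%, 30.3% and 41.8%. Levels of 2 of the 8 genes did not overlap between PNs and controls, against 17.7% of all genes. This held for 2 of 8 in slow-growing PNs, against 23.4%, for 4 of 8 in fast-growing PNs, against 32.4%, and for 0 of 8 between the tumor groups, against 3.01%. The counts in PNs and in slow-growing PNs were thus near the background shares. The median log2 fold change of the 8 genes was -0.25 in PNs, -0.39 in slow-growing and -0.22 in fast-growing PNs, beside 0.10, 0.04 and 0.02 over all genes tested, and 0.05 between the tumor groups beside -0.03. The comparisons with controls share the same 3 control libraries, so they are not independent of each other.

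**Figure D1:**
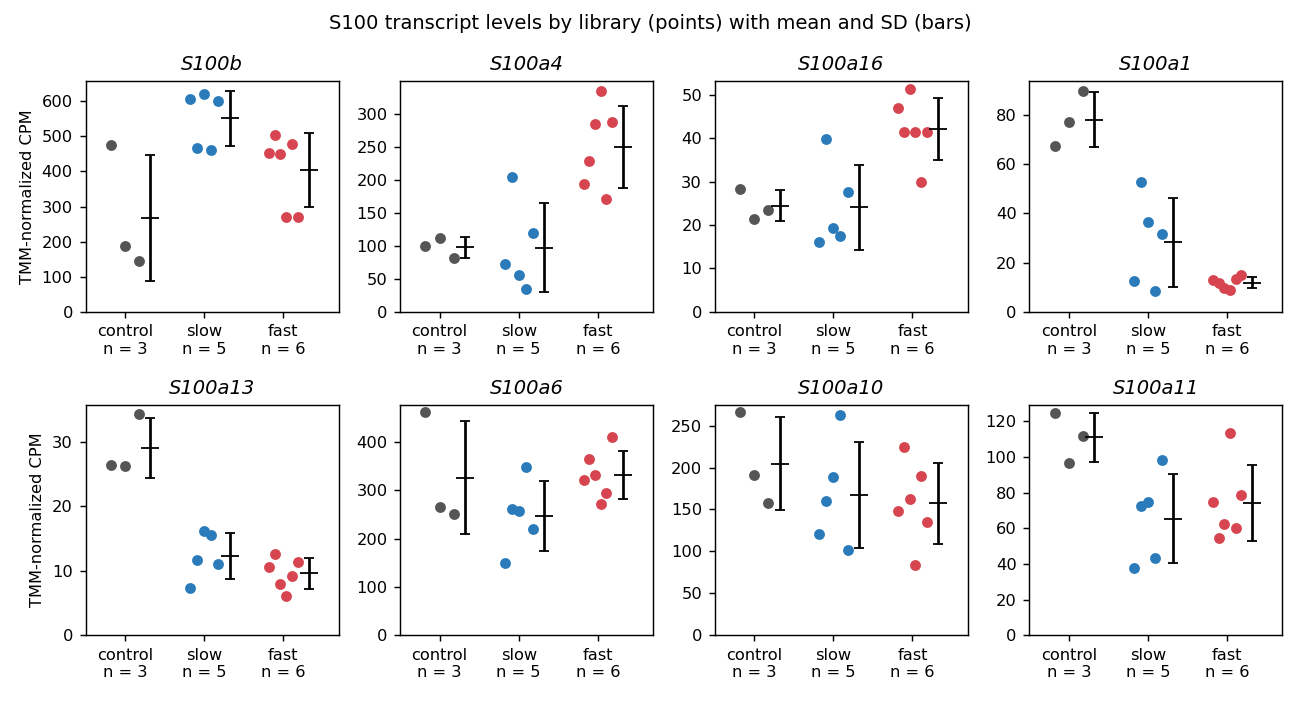
TMM-normalized CPM of the 8 genes (vertical axes, linear, from 0) in 3 controls, 5 slow-growing and 6 fast-growing PNs; each point is a library and bars give the mean and SD. *S100a1* and *S100a13* in all 11 PNs lie below all controls, and *S100a4* and *S100a16* in all 6 fast-growing PNs lie above all controls.

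*S100a1* encodes a calcium sensor best known from heart and skeletal muscle, where it binds the ryanodine receptor and the calcium pump SERCA. Its level was 67.3, 77.3 and 89.8 CPM in the controls. It was 12.3, 52.8, 36.4, 8.40 and 31.4 CPM in slow-growing PNs 1 to 5, and 12.8, 11.6, 9.66, 8.93, 13.4 and 14.8 CPM in fast-growing PNs 1 to 6. Every PN lay below every control, and the fast-growing PNs were closely grouped while the slow-growing ones split between 8.40 to 12.3 CPM in 2 tumors and 31.4 to 52.8 CPM in 3. Group means were 78.1 ± 11.3 CPM (SD, n = 3), 28.3 ± 18.2 (SD, n = 5) and 11.9 ± 2.27 (SD, n = 6).

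In PNs *S100a1* fell by 2.02 on the log2 scale (SE 0.47, edgeR, Benjamini-Hochberg adjusted p = 0.00621), and in fast-growing PNs by 2.77 (SE 0.18, adjusted p = 1.83e-05), which is 6.83-fold lower (95% interval of the log2 change, -3.17 to -2.37). In slow-growing PNs its log2 fold change was -1.51 (SE 0.53) without passing the edgeR test (Benjamini-Hochberg adjusted p = 0.1005), although no slow-growing PN reached a control; DESeq2 called it (-1.49, adjusted p = 0.0436), as did edgeR with all groups in one fit (-1.47, adjusted p = 0.0300). Between fast-growing and slow-growing PNs the log2 difference was -1.25 (SE 0.40, edgeR, Benjamini-Hochberg adjusted p = 0.111), and it passed without slow-growing PN 4 (-1.48; edgeR, Benjamini-Hochberg adjusted p = 0.0344). It passed in that fit only, 1 of 11 that each left out 1 library. The fat markers moved with *S100a1*: all 13 were called lower in fast-growing PNs, as were 13 of 15 skeletal muscle markers, and the 3 slow-growing PNs with the higher *S100a1* levels had fat marker sums of 2763 to 5390 CPM, against 65.1 and 528 CPM in the other 2. The correlation of *S100a1* with the fat marker score, the mean of log2(CPM + 1) over the list, was r = 0.908 over 14 libraries and 0.834 over the 11 PNs, as a description of libraries that also differ in depth and group. With the skeletal muscle score it was 0.429 over 14 libraries and -0.258 over the 11 PNs. The pericyte and smooth muscle score correlated with *S100a1* at 0.741 and 0.340, and 4 of its 7 markers were called lower and 1 higher in fast-growing PNs, with sums of 936 to 1102 CPM in controls, 240 to 1144 CPM in slow-growing and 315 to 443 CPM in fast-growing PNs. The red blood cell score correlated with it at 0.762 and 0.578, and *Alas2*, the only 1 of its 5 markers abundant enough to be tested, was called lower in fast-growing PNs. In either tumor group 4 of the 5 had no counts in any library, so this score rests on *Alas2*. The part of these cells in the fall of *S100a1* was not tested. With the skeletal muscle and fat scores as covariates, *S100a1* was at -3.18 on the log2 scale in fast-growing PNs (edgeR, Benjamini-Hochberg adjusted p = 0.236), further below controls than before. It came closer to controls than before in all PNs, at -1.21 (adjusted p = 0.160), and in slow-growing PNs, at -0.85 (edgeR, Benjamini-Hochberg adjusted p = 0.806). Between fast-growing and slow-growing PNs the difference was then -0.24 (edgeR, Benjamini-Hochberg adjusted p = 0.796), beside -1.25 without covariates. No S100 gene was called in any comparison by that fit, but in fast-growing PNs it called 0 genes of the whole table, so the lost calls there say nothing about *S100a1* in particular. Fat content and tumor group cannot be told apart in slow-growing or in fast-growing PNs, since the fat marker sums of neither group overlapped those of the controls.

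*S100a13* encodes a copper-binding member that takes part in the release of FGF1 and interleukin 1 alpha, which lack a signal peptide. It was at 26.4, 26.3 and 34.4 CPM in the controls. In slow-growing PNs it was 7.37, 11.6, 16.1, 15.5 and 11.1 CPM, and in fast-growing PNs 10.6, 12.7, 7.90, 6.13, 9.25 and 11.4 CPM. All 11 PNs lay below all controls, and the tumor groups overlapped.

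*S100a13* fell by 1.42 (SE 0.23) on the log2 scale in PNs, by 1.28 (SE 0.26) in slow-growing and by 1.65 (SE 0.22) in fast-growing PNs. The adjusted p-values were 0.000600, 0.0166 and 0.000559 (edgeR, Benjamini-Hochberg). The call in slow-growing PNs was lost without control 2 (-1.33, adjusted p = 0.0565) or without control 3 (-1.14; edgeR, Benjamini-Hochberg adjusted p = 0.0895). Unlike *S100a1*, *S100a13* followed the fat score loosely within the tumors (r = 0.156, 11 PNs, against 0.634 over 14 libraries), and slow-growing PN 4, with the lowest fat sum of its group, had 15.5 CPM; the difference between these correlations was not tested. Its correlation with the skeletal muscle score was 0.690 over 14 libraries and 0.257 over the 11 PNs, and that with the neuron score 0.304 and 0.688. With the SC score it was -0.752 over 14 libraries and -0.038 over the 11 PNs, and with the fibroblast score -0.535 and -0.619. With the pericyte and smooth muscle score it was 0.621 and -0.149, and with the cartilage and bone score 0.631 and -0.087. With the red blood cell score, which rests on *Alas2*, it was 0.604 and 0.126. The part of any of these cell types in the fall of *S100a13* was not tested. With the same covariates *S100a13* was at -2.02 in fast-growing PNs (edgeR, Benjamini-Hochberg adjusted p = 0.472) and at -1.003 in all PNs (adjusted p = 0.210). The level difference between fast-growing and slow-growing PNs was -0.35 on the log2 scale (95% interval, -0.87 to 0.16; edgeR, Benjamini-Hochberg adjusted p = 0.430).

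Although *S100a1* and *S100a13* start 104 bases apart on opposite strands, they did not move together in every library. Their levels correlated at r = 0.804 over all 14 libraries, where the controls are high in both, and at r = 0.410 over the 11 PNs. In slow-growing PN 4 *S100a1* was the lowest of all libraries while *S100a13* was among the 3 highest of the tumors.

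*S100a4*, also called FSP1 or metastasin, binds nonmuscle myosin IIA and is known from motile fibroblasts and leukocytes. It was at 99.5, 112 and 81.1 CPM in the controls. In slow-growing PNs it was 72.4, 204, 55.5, 33.9 and 119 CPM, which lay on both sides of the controls. In fast-growing PNs it was 194, 228, 284, 334, 170.0 and 287 CPM, and 4 of these 6 tumors lay above every slow-growing one.

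The mean *S100a4* level was 97.5 ± 15.6 CPM (SD, n = 3) in controls, 97.0 ± 67.7 (SD, n = 5) in slow-growing and 249.6 ± 62.7 (SD, n = 6) in fast-growing PNs. In fast-growing PNs *S100a4* rose by 1.31 on the log2 scale (SE 0.25, edgeR, Benjamini-Hochberg adjusted p = 0.00343), 2.48-fold, and it stayed called when any of the 9 libraries was left out. In slow-growing PNs the log2 fold change was -0.05 (95% interval, -1.23 to 1.13; Benjamini-Hochberg adjusted p = 0.958 by edgeR). Fast-growing against slow-growing PNs differed by 1.36 on the log2 scale (95% interval, 0.47 to 2.25), which did not pass (edgeR, Benjamini-Hochberg adjusted p = 0.0922). Without slow-growing PN 2, which had the highest level of its group, that difference was 1.83 (Benjamini-Hochberg adjusted p = 0.0131 by edgeR). *S100a4* was called in that fit only, 1 of 11 that each left out 1 library.

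*S100a16* encodes a widely expressed member with a single working calcium site, and its pattern over the libraries ran close to that of *S100a4*. Its level was 28.3, 21.4 and 23.4 CPM in the controls. In slow-growing PNs it was 16.1, 39.8, 19.4, 17.4 and 27.5 CPM, and in fast-growing PNs 47.0, 41.5, 51.3, 41.5, 30.0 and 41.5 CPM. All 6 fast-growing PNs lay above all controls and 5 of them above every slow-growing PN.

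*S100a16* rose 1.67-fold in fast-growing PNs (log2 0.74, SE 0.18, edgeR, Benjamini-Hochberg adjusted p = 0.0124). Without control 2 the call was lost (0.66; edgeR, Benjamini-Hochberg adjusted p = 0.0602). The difference from slow-growing PNs was 0.81 on the log2 scale (SE 0.24, edgeR, Benjamini-Hochberg adjusted p = 0.0910), and 1.07 without slow-growing PN 2 (Benjamini-Hochberg adjusted p = 0.0118 by edgeR). That fit was the only 1 of 11 leaving out 1 library in which this difference was called. *S100a4* and *S100a16* correlated at r = 0.912 over 14 libraries and at 0.922 over the 11 PNs, the highest of the 28 pairs among the 8 genes in both sets.

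Fibroblast markers were higher along with this pair. Of 10 fibroblast markers, 8 were called higher and 1 lower in fast-growing PNs, beside 31.4% of all genes called in either direction. Their sum there was 9719 to 19029 CPM against 2613 to 5332 CPM in controls and 2088 to 11438 CPM in slow-growing PNs. Per 1000 CPM of fibroblast markers, *S100a4* was 13.6 to 23.5 CPM in fast-growing, 10.4 to 20.9 CPM in slow-growing PNs and 18.7 to 42.9 CPM in controls, and 5 of the 6 fast-growing PNs lay below the lowest control. On this scale, which was chosen after the values were seen, the median was 17.3 CPM in fast-growing PNs and 26.7 CPM in controls, so the order of these groups turned. *S100a16* per 1000 CPM of fibroblast markers was 2.18 to 4.27 CPM in fast-growing PNs, below all controls at 5.32 to 8.21 CPM, and 2.89 to 8.35 CPM in slow-growing PNs, so its order turned as well. The marker sum was led by *Apod*, at 852 CPM on average in controls and 6346 CPM in fast-growing PNs, and *Dcn*, at 1520 and 4153 CPM. The study reports both as raised in several SC clusters of PNs, so this scale is not a level per fibroblast. The fibroblast score correlated with *S100a4* at r = 0.856 and with *S100a16* at r = 0.732 over the 11 PNs. The macrophage score correlated with them at 0.923 and 0.911 over the same PNs. Of 9 macrophage markers, 1 was called higher and none lower in fast-growing PNs against controls. Against slow-growing PNs edgeR also called 1 higher, 8 of 9 had an unadjusted p under 0.05, DESeq2 called 6, limma voom called 0, and their median log2 fold change was 1.75 beside -0.03 over all genes. Macrophage sums overlapped, at 183 to 670.1 CPM in controls, 64.2 to 559 CPM in slow-growing and 317 to 1058 CPM in fast-growing PNs. The satellite glia score correlated with *S100a16* at r = 0.798 and with *S100a4* at 0.636 over the 11 PNs. Of its 5 markers 1 was called higher and 1 lower in fast-growing PNs, with overlapping sums of 1103 to 1348 CPM in controls, 709 to 1397 CPM in slow-growing and 1136 to 1508 CPM in fast-growing PNs. With the skeletal muscle and fat scores as covariates, the log2 fold change in fast-growing PNs was 0.84 for *S100a4* (adjusted p = 0.871) and 0.020 for *S100a16* (adjusted p = 0.998, edgeR, Benjamini-Hochberg). The part of these cells in the rise of *S100a4* and *S100a16* was not tested.

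**Figure D2:**
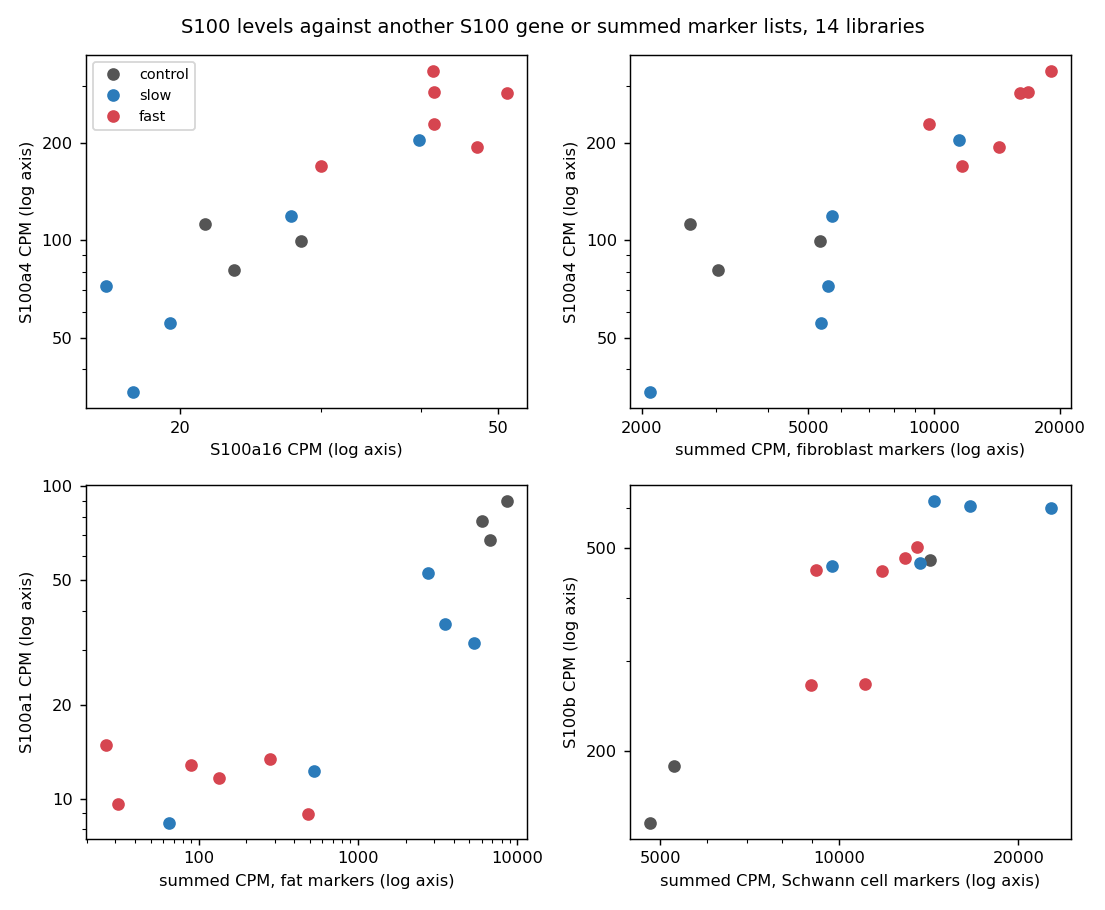
Each point is a library (3 controls, 5 slow-growing and 6 fast-growing PNs), with levels in CPM on log axes. *S100a4* rises along *S100a16* (r = 0.912) and along the summed fibroblast markers, *S100a1* separates libraries with fat marker sums of 2763 CPM or more from the rest, and *S100b* is lowest in the 2 controls with the least SC marker RNA.

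*S100b* is expressed by myelinating and nonmyelinating SCs and by satellite glia, and its protein is both an intracellular partner of kinases such as STK38 and a released ligand of RAGE. It was at 474, 187 and 144 CPM in the controls. In slow-growing PNs it was 606, 467, 619.6, 461 and 601 CPM. In fast-growing PNs it was 453, 504, 450.3, 271, 479 and 269 CPM. Control 1, the control with the most SC marker RNA, lay within the range of the tumors, and the other 2 controls lay below all 11 PNs.

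The mean *S100b* level was 268 ± 179 CPM (SD, n = 3) in controls, 551 ± 79.6 (SD, n = 5) in slow-growing and 404 ± 106 (SD, n = 6) in fast-growing PNs. The log2 fold change was 0.81 in PNs (95% interval, 0.079 to 1.54; edgeR, Benjamini-Hochberg adjusted p = 0.0940), 1.01 in slow-growing (adjusted p = 0.124) and 0.55 in fast-growing PNs (adjusted p = 0.298). With all libraries edgeR called none of these, while DESeq2 called *S100b* in slow-growing PNs (1.03, adjusted p = 0.0330) and limma voom called it in PNs (0.97, adjusted p = 0.0348). Without control 1 all passed with edgeR, at 1.51 in PNs (adjusted p = 0.00463), 1.69 in slow-growing (adjusted p = 0.00864) and 1.21 in fast-growing PNs (adjusted p = 0.0138; edgeR, Benjamini-Hochberg). These were the only passes among fits leaving out 1 library, 1 of 14, 1 of 8 and 1 of 9. Fast-growing PNs differed from slow-growing ones by -0.45 on the log2 scale (95% interval, -0.88 to -0.013; edgeR, Benjamini-Hochberg adjusted p = 0.233).

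SC markers were lowest in the controls with the least *S100b*, but within the tumors they tracked it loosely. Of the 16 SC markers 8 were called higher in PNs and none lower, with sums of 9712 to 22693 CPM in slow-growing and 8962 to 13479 CPM in fast-growing PNs beside the control values above. The SC score correlated with *S100b* at r = 0.825 over 14 libraries and at 0.363 over the 11 PNs, where the same score correlated with *S100a4* at 0.394 and with *S100a16* at 0.378. Over the 11 PNs *S100b* correlated at 0.657 with the neuron score and at -0.705 with the macrophage score. In the same PNs it was at -0.578 with the fibroblast score and at 0.638 with the red blood cell score. With the satellite glia score it was at 0.112 over 14 libraries and at -0.376 over the 11 PNs. Per 1000 CPM of SC markers, again a scale chosen after the values were seen, *S100b* was 33.4, 35.3 and 30.1 CPM in the controls, 26.5 to 47.5 CPM in slow-growing and 24.6 to 49.6 CPM in fast-growing PNs. On that scale the 3 controls were close together and lay inside the range of both tumor groups. The part of these cells in the level of *S100b* was not tested.

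*S100a11*, a partner of annexin A1 at the plasma membrane, was at 125, 96.7 and 112 CPM in the controls. It was 37.6, 72.6, 74.7, 43.5 and 98.5 CPM in slow-growing and 75.0, 54.4, 62.5, 114, 60.4 and 78.5 CPM in fast-growing PNs. Apart from slow-growing PN 5 and fast-growing PN 4, all PNs lay below all controls. Its log2 fold change in PNs was -0.66 (95% interval, -1.21 to -0.12; edgeR, Benjamini-Hochberg adjusted p = 0.0688). The test was passed without fast-growing PN 4 (-0.77, adjusted p = 0.0244) and without slow-growing PN 5 (-0.72; edgeR, Benjamini-Hochberg adjusted p = 0.0468). In fast-growing PNs alone it was -0.63 (adjusted p = 0.0629), and -0.80 without fast-growing PN 4 (adjusted p = 0.00498, edgeR, Benjamini-Hochberg). DESeq2 called *S100a11* with all libraries, in PNs (-0.71, adjusted p = 0.0450) and in fast-growing PNs (-0.63, adjusted p = 0.0425). The endothelial score correlated with *S100a11* at r = 0.800 over 14 libraries and at 0.725 over the 11 PNs. It was not alone, as the fibroblast score was at 0.391 and 0.718 and the neuron score at -0.533 and -0.684. The pericyte and smooth muscle score was at 0.715 and 0.496, and the fat score at 0.605 and 0.350. Of 8 endothelial markers 4 were called lower and none higher in fast-growing PNs, with sums of 368 to 499.9 CPM in controls, 104 to 468 CPM in slow-growing and 143 to 340.0 CPM in fast-growing PNs. The part of any of these cell types in the level of *S100a11* was not tested.

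*S100a6*, or calcyclin, binds the ubiquitin ligase adaptor CACYBP and is abundant in fibroblasts and in some glia. It was at 461, 266 and 252 CPM in the controls, 149, 262, 257, 348 and 220.1 CPM in slow-growing and 321, 364, 330.5, 272, 295 and 410.2 CPM in fast-growing PNs. The groups overlapped throughout. Its log2 fold change was -0.15 in PNs (95% interval, -0.69 to 0.39; edgeR, Benjamini-Hochberg adjusted p = 0.691) and 0.43 between fast-growing and slow-growing PNs (-0.0032 to 0.85; adjusted p = 0.248).

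*S100a10*, the calcium-insensitive partner of annexin A2 that also binds plasminogen activator, was at 266, 191 and 158 CPM in the controls. It was 121, 160.4, 188, 262 and 102 CPM in slow-growing and 148, 224, 163, 83.7, 190.0 and 135 CPM in fast-growing PNs. Its log2 fold change was -0.34 in PNs (95% interval, -0.94 to 0.26; edgeR, Benjamini-Hochberg adjusted p = 0.395) and -0.08 between the tumor groups (-0.69 to 0.52; adjusted p = 0.880). The lowest level was that of fast-growing PN 4, the tumor almost without neuronal RNA, and *S100a10* correlated with the neuron score at r = 0.732 over 14 libraries and 0.782 over the 11 PNs. Over the same PNs it was at -0.833 with the endothelial and -0.708 with the perineurial score. With the fibroblast score it was at -0.699, and with the pericyte and smooth muscle score at -0.679. The neuron marker sum was 1786 to 6450.5 CPM in controls, 2916 to 15238 CPM in slow-growing and 36.3 to 8701 CPM in fast-growing PNs. The part of any of these cell types in the level of *S100a10* was not tested.

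**Figure D3:**
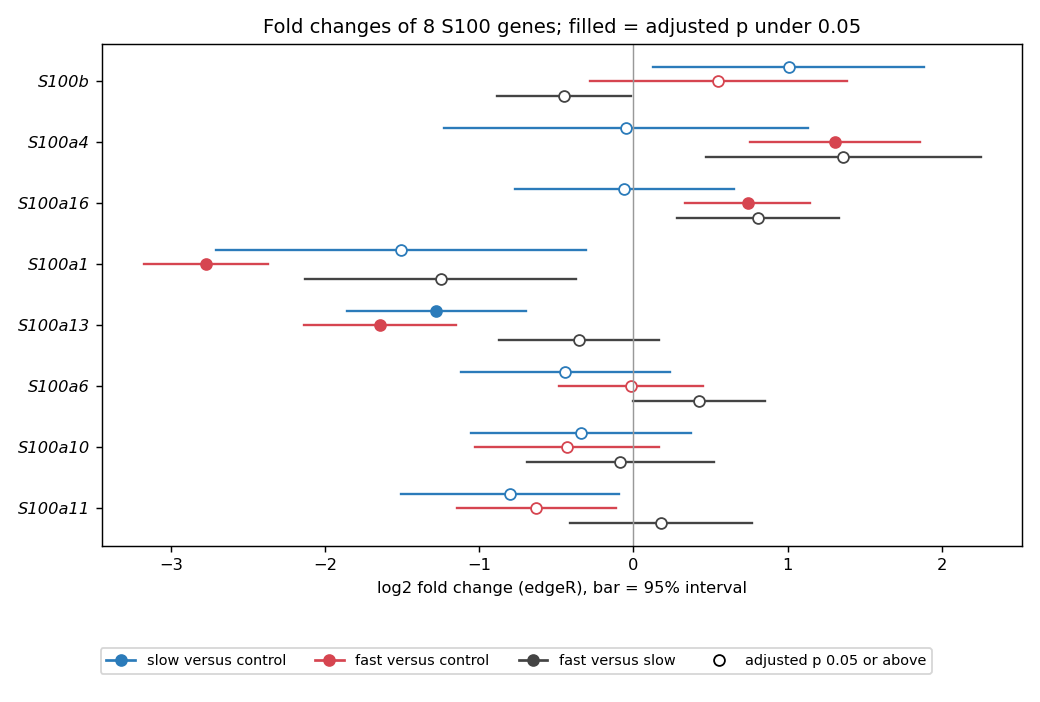
Log2 fold change (horizontal axis) with its 95% interval for each gene in slow-growing PNs against controls, fast-growing PNs against controls and fast-growing against slow-growing PNs; filled points passed at an adjusted p under 0.05. The filled points are *S100a13* in both tumor groups and *S100a1*, *S100a4* and *S100a16* in fast-growing PNs.

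To compare genes, levels were divided by the longest annotated transcript, which is 498 bases for *S100a4* and 1484 bases for *S100b*. Per kilobase, *S100a6* was highest in controls (417 ± 149 CPM per kb, SD, n = 3), followed by *S100a10* (299 ± 80.9), *S100a11* (217 ± 27.4), *S100a4* (196 ± 31.3), *S100b* (181 ± 121), *S100a1* (115 ± 16.6), *S100a13* (40.6 ± 6.44) and *S100a16* (21.6 ± 3.157). The order from *S100a11* to *S100a1* was not fixed, since each neighbouring pair there kept it in 2 of the 3 libraries. In slow-growing PNs *S100b* had the highest mean, 371 ± 53.7 CPM per kb (SD, n = 5), but exceeded *S100a6* in 3 of 5 libraries only. In fast-growing PNs *S100a4* had the highest mean, 501 ± 126 CPM per kb (SD, n = 6), and exceeded *S100a6* (424 ± 63.1) in 3 of 6 libraries, while *S100a6* exceeded *S100b* (272 ± 71.4) in 6 of 6. *S100a13* and *S100a16* changed places: *S100a13* was the higher in all 3 controls, whereas *S100a16* was above both *S100a1* and *S100a13* on average in fast-growing PNs.

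The make-up of the 8 transcripts differed accordingly. *S100b* took 7.90% to 16.8% of their summed CPM per kb in controls, 20.1% to 39.4% in slow-growing and 10.6% to 21.6% in fast-growing PNs. *S100a4* took 10.5% to 16.9%, 5.07% to 26.2% and 22.8% to 41.8%. The share of *S100a1* was 5.23% to 10.8% in controls and 0.822% to 1.32% in fast-growing PNs. Shares add to 100 within a library, so a rise in the share of a gene lowers the shares of the others. The summed level itself was 1231 to 1901 CPM per kb in controls, 1038 to 1566 in slow-growing and 1495.3 to 1768 in fast-growing PNs.

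**Figure D4:**
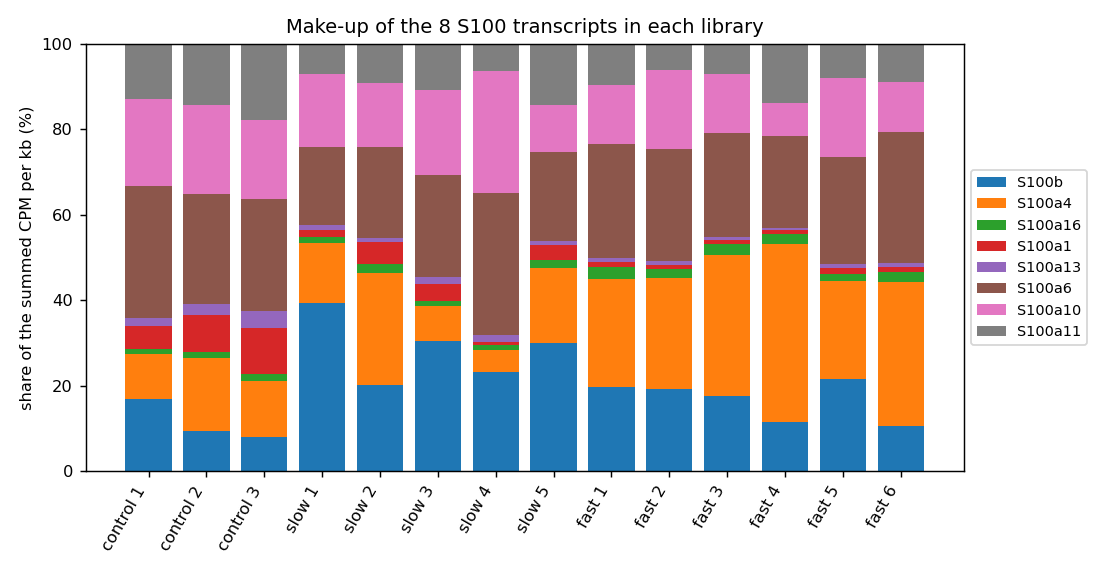
Share of each gene in the summed CPM per kb of the 8 genes (vertical axis, %), in each of the 14 libraries. *S100b* takes the largest part of the bar in slow-growing PN 1 (39.4%) and *S100a4* in fast-growing PN 4 (41.8%), while *S100a1* shrinks to 1.32% or less in the fast-growing PNs.

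Known partners and receptors of S100 proteins were read from a list of 26 genes, and 24 were tested in PNs against controls. Of these 2 were called higher and 0 lower by edgeR, 5 having an unadjusted p under 0.05, where 26.3% of all genes were called. DESeq2 called 4 of the 24, against 31.8% of all genes, and limma voom 2, against 26.4%. *Ahnak*, a giant scaffold that docks on the S100A10-annexin A2 complex, rose by 0.83 in log2 units (adjusted p = 0.0497), as did *Plat*, tissue plasminogen activator, by 1.60 (Benjamini-Hochberg adjusted p = 0.0403 by edgeR). Both calls were fragile: leaving out each of the 14 libraries in turn, *Ahnak* stayed called in 2 fits and *Plat* in 6. With the skeletal muscle and fat scores as covariates *Plat* was at 0.17 in PNs (edgeR, Benjamini-Hochberg adjusted p = 0.903). *Plat* was 16.4 to 33.6 CPM in controls, 15.9 to 49.8 CPM in slow-growing and 77.6 to 134.7 CPM in fast-growing PNs, where it exceeded controls by 2.03 in log2 units (adjusted p = 0.000752) and slow-growing PNs by 1.39 (adjusted p = 0.0449, edgeR, Benjamini-Hochberg). The call over slow-growing PNs was lost in 8 of 11 fits that left out 1 library. In fast-growing PNs against controls the partner calls were 2 higher and 2 lower, against 31.4% of all genes, and in slow-growing PNs edgeR called 0 of 23, with 0 at an unadjusted p under 0.05 and 0 calls by DESeq2 or limma voom.

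*Anxa1*, the partner of S100A11, was 37.5 to 72.0 CPM in controls and 154 to 452 CPM in fast-growing PNs, and rose there by 2.04 on the log2 scale (SE 0.41, edgeR, Benjamini-Hochberg adjusted p = 0.00506). *S100a11* itself was lower or within the control range in the same libraries. *Anxa2* had a log2 fold change of 0.15 in PNs (95% interval, -0.37 to 0.67; edgeR, Benjamini-Hochberg adjusted p = 0.676) and correlated with *S100a10* at r = 0.693 over 14 libraries and 0.7996 over the 11 PNs. *Ahnak* correlated with *S100a10* at r = -0.609 over 14 libraries and -0.912 over the 11 PNs. *Cacybp*, the partner of S100A6, fell by 0.80 in fast-growing PNs (adjusted p = 0.0218, edgeR, Benjamini-Hochberg) and stayed negative whichever of the 9 libraries was left out. The call was lost without control 1 (-0.56, adjusted p = 0.0954), without fast-growing PN 3 (-0.76, adjusted p = 0.0633) and without fast-growing PN 6 (-0.71, adjusted p = 0.0746, edgeR, Benjamini-Hochberg). *Myh9*, the heavy chain of the myosin that S100A4 binds, had a log2 fold change of -0.04 in PNs (95% interval, -0.38 to 0.30; adjusted p = 0.893). *Ager*, which encodes RAGE, was at 0.647 to 2.33 CPM in controls and 0 to 1.74 CPM in PNs. *Tlr4* was 21.7 to 37.7 CPM in controls and 10.1 to 80.9 CPM in PNs (log2 0.37, adjusted p = 0.586, edgeR, Benjamini-Hochberg).

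Of 9 other S100 genes, 4 were tested in PNs against controls and 2 were called, both lower. *S100a8* and *S100a9*, which form calprotectin in neutrophils, fell by 3.63 (adjusted p = 0.00264) and 2.86 (adjusted p = 0.0119, edgeR, Benjamini-Hochberg) on the log2 scale. Control 3 carried these calls, with 417 CPM of *S100a8* against 52.4 and 16.8 CPM in the other controls and 2.31 to 36.1 CPM in PNs. Without control 3 the log2 fold changes were -1.40 (adjusted p = 0.248) and -0.63 (adjusted p = 0.659). Among the 8 genes, *S100a1* and *S100a13* also had their highest control level in control 3, whereas *S100b*, *S100a4*, *S100a6* and *S100a10* had their lowest there.

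The genes whose levels over the 14 libraries were most like those of a member were ranked by Pearson correlation of log2(CPM + 1) among the 16283 genes tested in PNs. For *S100b* they were *Fntb* (r = 0.946), *Trim45* (0.936) and *Gfra1* (0.935), the latter a GDNF receptor. For *S100a4* they were *Itga1* (0.987), *Pros1* (0.972) and *Tnfrsf12a* (0.972), and for *S100a16* *Sox5* (0.960), *Pdlim4* (0.941) and *Metrn* (0.932). *S100a1* was most like *Sephs2* (0.976), 3010033K07Rik (0.970) and *Retsat* (0.970), and *S100a13* most like 3 genes of mitochondrial proteins, *Ndufa8* (0.984), *Mrps34* (0.976) and *Mrps21* (0.976). *Ndufa8* was at 70.7 CPM on average in controls, 21.6 in slow-growing and 15.9 in fast-growing PNs. The 3 most like *S100a6* were *Sumf1* (0.920), *Bre* (0.868) and *Nfic* (0.857). For *S100a10* they were *Nnat* (0.951), *Psma5* (0.935) and *Tmem79* (0.933), and for *S100a11* *Trit1* (0.922), *Nox4* (0.918) and 5430417L22Rik (0.915). These are the highest of very many correlations over 14 libraries that fall into 3 groups, and they describe likeness of pattern only.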

How the data were processed

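Total RNA of 14 mouse tissues was sequenced after amplification (Ovation RNA-Seq System v2). The authors aligned reads to mm10 (submitters' notes: TopHat2 2.0.9, featureCounts 1.5.2) and deposited whole-number counts per gene for 24062 genes. The annotation and the use of strand in counting are not given in the sources used here. A deposited table of log2 values was not used. Each library has its own label, but the labels used here do not name the mouse. Whether libraries of a group share a mouse is thus not known. Sex and batch per library are not given either, so p-values measure the spread between these samples.

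The counts were tested with edgeR 4.0.16 in R 4.3.3 (filterByExpr, TMM scaling, quasi-likelihood test, Benjamini-Hochberg adjustment over all genes kept, called under an adjusted p of 0.05), with the libraries of each comparison only. Standard errors and 95% intervals came from the same fit, and the procedure was tested on simulated data. Likeness used log2(CPM + 1). Alternatives were DESeq2 1.42.0, limma voom 3.58.1, RLE scaling, no filter on low counts, all groups in one fit, skeletal muscle and fat scores as covariates, a pseudocount of 0.1, and leaving out each library in turn. Positions and lengths came from GENCODE M21, and upstream sequence from RefSeq (GRCm38.p6). Libraries held 9596773 to 17594164 counts. Amplified reads are not independent molecules, so no counting intervals are given.

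The 8 genes and all lists were chosen with earlier results of these data known. Named were the 8 genes; of the other S100 genes and the partners, those called in PNs or between tumor groups, plus *Ager*, *Tlr4*, *Anxa1*, *Anxa2*, *Cacybp* and *Myh9*; for each of the 8 genes the 3 genes of highest correlation; and of each marker list its counts and 2 most abundant genes. Libraries are numbered within a group in accession order.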

Additional observations from a re-analysis of the deposited data

How the results depend on the processing

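No paired analysis was possible because the labels give the groups no shared replicate numbers. Among the 8 genes, every call in PNs and in fast-growing PNs kept its direction under all alternatives run, though *S100a16* in fast-growing PNs came to 0.020 with the skeletal muscle and fat scores as covariates. All calls were lost with these covariates, where 624 genes and 0 S100 genes were called in PNs, 0 and 0 in slow-growing, 0 and 0 in fast-growing PNs, and 0 genes between the tumor groups; partners and other S100 genes called were then 0 in PNs, 0 in fast-growing PNs and 0 between tumor groups. In that fit *S100a1* and *S100a13* were at -1.21 and -1.003 in PNs (edgeR, Benjamini-Hochberg adjusted p = 0.160 and 0.210) but at -3.18 and -2.02 in fast-growing PNs (adjusted p = 0.236 and 0.472), beside -2.77 and -1.65 without covariates. There *S100a4* was at 0.84 (adjusted p = 0.871, beside 1.31 without covariates) and *S100a16* at 0.020 (adjusted p = 0.998, beside 0.74). In slow-growing PNs *S100a13* was at -1.10 (adjusted p = 0.745, beside -1.28) and *S100a1* at -0.85 (edgeR, Benjamini-Hochberg adjusted p = 0.806, beside -1.51). Between the tumor groups *S100a1* was at -0.24 (edgeR, Benjamini-Hochberg adjusted p = 0.796, beside -1.25). *Plat* in PNs was at 0.17 (adjusted p = 0.903, beside 1.60). DESeq2 called 3529 genes and 3 of the 8 in slow-growing PNs, 1570 genes and 3 of the 8 between tumor groups, and 2, 10 and 3 partners and other S100 genes in slow-growing, in fast-growing and between tumor groups. With all groups in one fit 3280 genes, 2 of the 8 and 2 partners or other S100 genes were called in slow-growing PNs, and 423 genes between tumor groups. limma voom called 34 genes and 0 partners between tumor groups, and RLE scaling 130 genes; no filter gave 1 other S100 gene in slow-growing PNs. The cause of these differences was not tested.

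Leaving out each library in turn gave 2061 to 4779 genes in PNs, 599 to 2454 in slow-growing, 3342 to 5247 in fast-growing PNs and 2 to 1194 between tumor groups. Of the 8 genes it called 2 to 3, 0 to 2, 3 to 5 and 0 to 2, and of partners and other S100 genes 0 to 5, 0 to 2, 3 to 9 and 0 to 4. Changes of sign were seen only for values that had not passed. With the covariates, log2 fold changes in PNs were -1.02 for *S100a4*, -0.66 for *S100a16*, -0.83 for *Tlr4*, -0.28 for *Anxa1* and 0.13 for *Cacybp*; in slow-growing PNs -0.22 for *Anxa2*; in fast-growing PNs 0.75 for *Ager* and -0.065 for *Myh9*; between tumor groups -0.14 for *S100a8* (-0.12 with limma voom) and 0.16 for *Ahnak*. *S100a6* in fast-growing PNs was 0.020 with limma voom, 0.0053 without the filter and 0.026 with all groups in one fit. With the covariates it was -0.96 in fast-growing PNs (beside -0.018) and -0.92 in slow-growing PNs (beside -0.44). Its lowest value in PNs, among the alternatives that kept all libraries, was -0.84. Leaving out libraries, *S100a6* ranged from -0.31 to 0.19 in PNs and from -0.14 to 0.29 in fast-growing PNs, *S100a16* from -0.32 to 0.086 and *S100a4* from -0.51 to 0.20 in slow-growing PNs, and between tumor groups *S100a10* from -0.21 to 0.14, *S100a11* from -0.0031 to 0.38, *S100a8* from -0.61 to 0.37 and *S100a9* from -0.28 to 0.60. *Anxa2* ranged from -0.023 to 0.44 in PNs, -0.041 to 0.42 in slow-growing, -0.057 to 0.33 in fast-growing PNs and -0.16 to 0.15 between tumor groups, *Myh9* from -0.11 to 0.022 in PNs and -0.018 to 0.12 in fast-growing PNs, *Ager* from -0.62 to 0.46 in fast-growing PNs, and *Cacybp* from -0.34 to 0.061 and *Anxa1* from -0.035 to 0.88 in slow-growing PNs. With a pseudocount of 0.1 the gene most like each of the 8 was the same, and 2 or 3 of its 3 closest genes were shared.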

Other observations

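Markers of the other cell types that these tissues can hold were counted in PNs against controls (edgeR, Benjamini-Hochberg), where 26.3% of all genes were called. Of SC markers, led by *Pmp22* and *Mbp*, 8 of 16 were higher, and of satellite glia markers (*Apoe*, *Glul*) 1 of 5 was higher. Of fibroblast markers (*Apod*, *Dcn*) 1 of 10 was higher and 1 lower, and of perineurial markers (*Itgb4*, *Cldn1*) 1 of 5 was lower. Granulocyte markers, led by *S100a9* and *S100a8*, were lower in 6 of 9, with a summed level of 1752 CPM in control 3 against 266 and 112 CPM in the other controls and 51.9 to 322 CPM in PNs. Lower too were endothelial markers (*Cdh5*, *Pecam1*) in 3 of 8, pericyte and smooth muscle markers (*Acta2*, *Cspg4*) in 2 of 7, skeletal muscle markers (*Acta1*, *Atp2a1*) in 9 of 15, fat markers (*Car3*, *Fabp4*) in 3 of 13, and cartilage and bone markers (*Col2a1*, *Comp*) in 2 of 3 tested. Of 9 macrophage markers (*Csf1r*, *Itgam*) and 12 neuron markers (*Snap25*, *Nefl*) edgeR called 0, with 0 at an unadjusted p under 0.05 and 0 by DESeq2 or limma voom. Of red blood cell markers (*Alas2*, *Hbb-bs*) 1 was tested and 0 called by edgeR, 1 at an unadjusted p under 0.05, and 1 by DESeq2 and by limma voom. Some counts of called markers in PNs moved by over 1.5 times with the tool. limma voom called 9 of 13 fat markers, 2 of 9 granulocyte markers and 1 of 3 cartilage and bone markers, DESeq2 called 5 of 10 fibroblast and 2 of 5 perineurial markers, and both called 4 of 7 pericyte and smooth muscle markers.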
